A study of Mus musculus with 12 samples.

Results

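Glycolysis splits glucose into pyruvate in the cytosol, and pyruvate then either enters mitochondria or is turned into lactate, which can be passed between cells. The 36 genes described here encode this route: glucose transporters, the glycolytic enzymes, the enzymes that make the regulator fructose-2,6-bisphosphate, lactate dehydrogenase, the monocarboxylate transporters with their partner Bsg, and pyruvate dehydrogenase with its kinases. They were taken by symbol from the table of 21937 genes, with Pkm listed as Pkm2, and all 36 passed the filter on low values. RNA was sequenced from myelin, isolated from the brain as a membrane fraction of low density, of male wild-type c57Bl6/N mice. The ages were P18 (postnatal day 18, while myelin is still being formed), P75, 6mo (6 months) and 24mo (24 months), and each age had 3 libraries, which makes 12. The labels mark every library as WT and give no treatment. For 6mo the study states that each library came from the brain of 1 mouse, and for the other ages this is not given in the sources used here, so p-values measure only the spread between these libraries, which may be technical. The comparisons ask how the transcript pool of myelin changes between consecutive ages, and P18 to 24mo gives the net difference.

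In the brain, oligodendrocytes, the cells that form myelin, are known to take up glucose, to run glycolysis and to release lactate through the monocarboxylate transporter MCT1 (Slc16a1), from where axons can take it up and oxidise it. Lactate dehydrogenase interconverts pyruvate and lactate. Its A subunit (Ldha) is often linked to lactate formation and its B subunit (Ldhb) to pyruvate formation, but the direction of the reaction was not measured here. Pyruvate enters the tricarboxylic acid cycle through pyruvate dehydrogenase, which its kinases (Pdk) switch off by phosphorylation.

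Values are normalized read counts, that is, reads on a gene divided by the size factor of the library, with 1 read worth between 0.812 and 1.19. The libraries held 20299052 to 27214385 reads on genes, of which the 36 genes took 1.04% to 1.51%. Mbp, a major myelin gene, took 4.76% to 20.8% of the reads, and among the P18 libraries replicate 3 had the lowest share at 9.47%. The 12 myelin and oligodendrocyte markers summed to 357954 to 639896 at P18 and to 201139 to 340831 at the later ages, and neuron markers (11 measured) summed to 179098 to 235674. In P75 replicate 2 the neuron sum (235674) was above the myelin sum (201139). No other brain tissue was compared, so an enrichment of myelin transcripts was not tested. In such a bulk fraction fewer cells or fragments of a type and less RNA per cell cannot be told apart.

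Per kilobase of exon, Aldoa was the most abundant of the 36 genes, with 22693 normalized read counts per kb over the 12 libraries, followed by Gapdh (19101), Ldhb (14427), Aldoc (12098), Pkm2 (10854) and Pgam1 (7521). Gpi1 (6556), Pgk1 (6193), Tpi1 (5976), Bsg (5506), Eno2 (4481) and Ldha (3118) came next. At the lower end stood Slc16a7 (25.3), Hk2 (17.0), Slc16a3 (9.38) and Pfkfb1 (5.38). The order of neighbours was not fixed: at 6mo Pkm2 reached 13795 ± 908 per kb (SD, n = 3), above Ldhb at 12630 ± 819, whereas at P18 it was 9280 ± 469 against 15574 ± 2071. Bsg rose through the order from 3619 ± 495 per kb at P18, below Eno2 (4713 ± 263), to 7508 ± 684 at 24mo, above Eno2 (3929 ± 232).

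Among the 36 genes 3 kinds of profile are set out here, which do not cover every gene. Transporters of glucose and monocarboxylates and Bsg were higher at 24mo than at P18. Many enzymes, among them Hk1, Pfkm, Tpi1, Pgk1, Eno2, Pkm2 and Pdha1, had their highest mean at 6mo and were lower at P75 and 24mo. A further group, with Aldoa, Aldoc, Gapdh, Pgam1, Pgam2, Pdhb, Dlat and Pdk2, was lower at 24mo than at P18. The kinds overlapped, since Tpi1, Hk1 and Eno2 were also called down from P18 to 24mo. The calls of Hk1 and Eno2 were lost under some settings. Outside these kinds, Eno3, Pfkfb2 and Pfkfb4 had their lowest mean at 6mo, and Gpi1 was not called in any comparison.

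**Figure D1:**
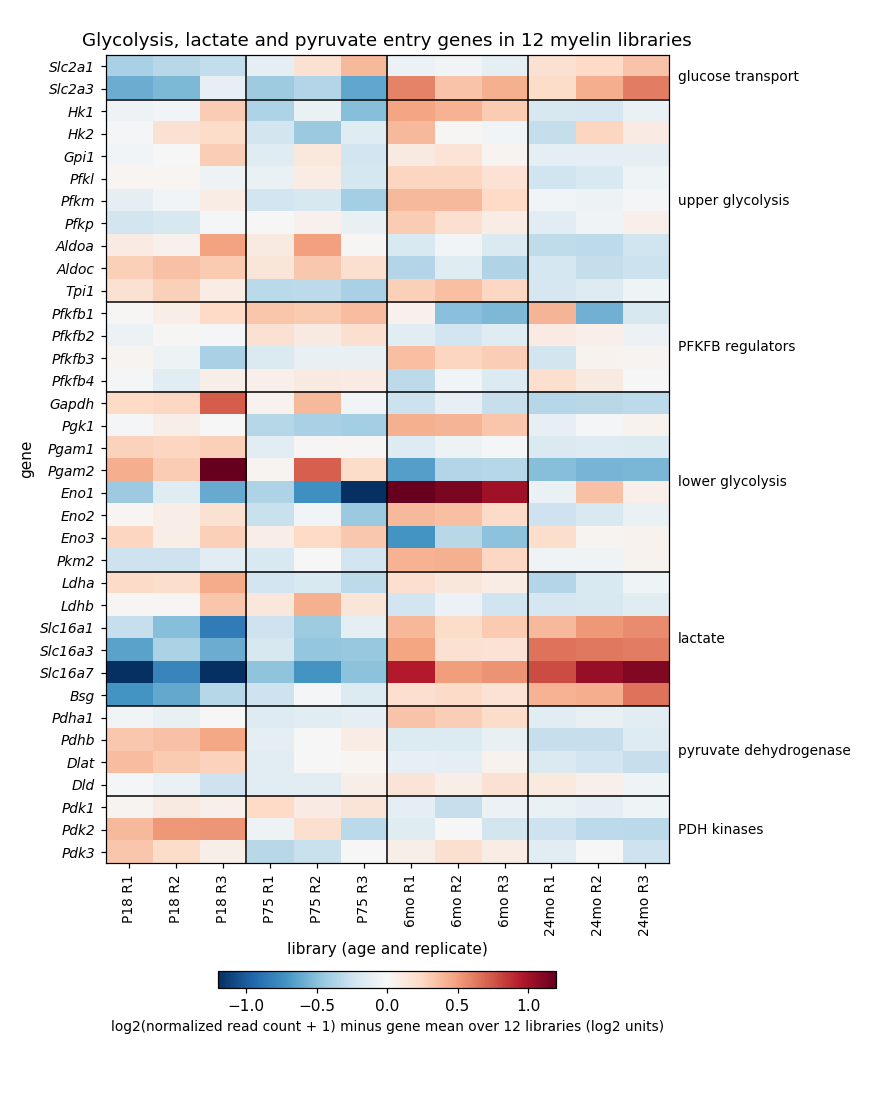
Each cell shows a gene in a library as log2(normalized read count + 1) minus the mean of that gene over the 12 libraries, with genes (rows) ordered by role and libraries (columns) by age, and the colours capped at the ends of the scale. Red cells gather at 6mo and 24mo for the Slc16a genes and Bsg, at 6mo for Hk1, Pfkm, Pgk1, Eno1 and Pkm2, and at P18 for Pdhb, Dlat and Pdk2.

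Changes were called where the adjusted p was under 0.1 (limma on log2(normalized read count + 1), Benjamini-Hochberg over 14634 genes). From P18 to P75, 17 of 36 were called (47.2%), beside 48.8% of all genes, and 5 rose while 12 fell, where 25.9% of all genes rose and 22.9% fell. The called changes ran from -0.55 (Pdk2) to 0.52 (Slc16a7) on the log2 scale, all within a fold of 1.5, which 18.5% of all genes were called beyond. From P75 to 6mo, 31 of 36 were called (86.1%), beside 60.6% of all genes, and 20 rose (31.2% of all genes) while 11 fell (29.4%). Of these, 11 exceeded a fold of 1.5, which was 30.6% of the members beside 27.8% of all genes. From 6mo to 24mo, 17 were called (47.2%), beside 29.3% of all genes, and 5 rose (16.6% of all genes) while 12 fell (12.7%). Only Eno1 and Eno3 exceeded a fold of 1.5 in that last step, beside 7.2% of all genes. From P18 to 24mo, 21 were called (58.3%), beside 69.0% of all genes, with 7 up (34.7% of all genes) and 14 down (34.3%), and 10 exceeded a fold of 1.5 (27.8%, beside 38.6% of all genes).

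The libraries of the ages compared did not overlap for 18 of the 36 genes from P18 to P75 (47.7% of all genes), for 30 from P75 to 6mo (63.1%), for 24 from 6mo to 24mo (43.5%) and for 24 from P18 to 24mo (66.6%).

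The median log2 change of the 36 genes was -0.08 in the step from P18 to P75, 0.25 in that from P75 to 6mo and -0.11 in that from 6mo to 24mo, where the medians of all genes were 0.02, 0.01 and 0.03. For P18 to 24mo it was -0.13, and -0.01 for all genes. Consecutive comparisons share the libraries of the age between them, so a high or low value at P75 or 6mo enters the steps before and after it with opposite sign. With the libraries scaled to the same total, which moved the median of all genes from 0.02 to 0.14 for P18 to P75, the split of P18 to P75 was 5 up and 7 down and that of 6mo to 24mo was 1 up and 11 down. Without the 10 most abundant genes in the total, or with quantile normalization, 6mo to 24mo gave 3 up and 13 down. The shares of all genes called under these scalings were not computed, so these splits cannot be set beside those of all genes.

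**Figure D2:**
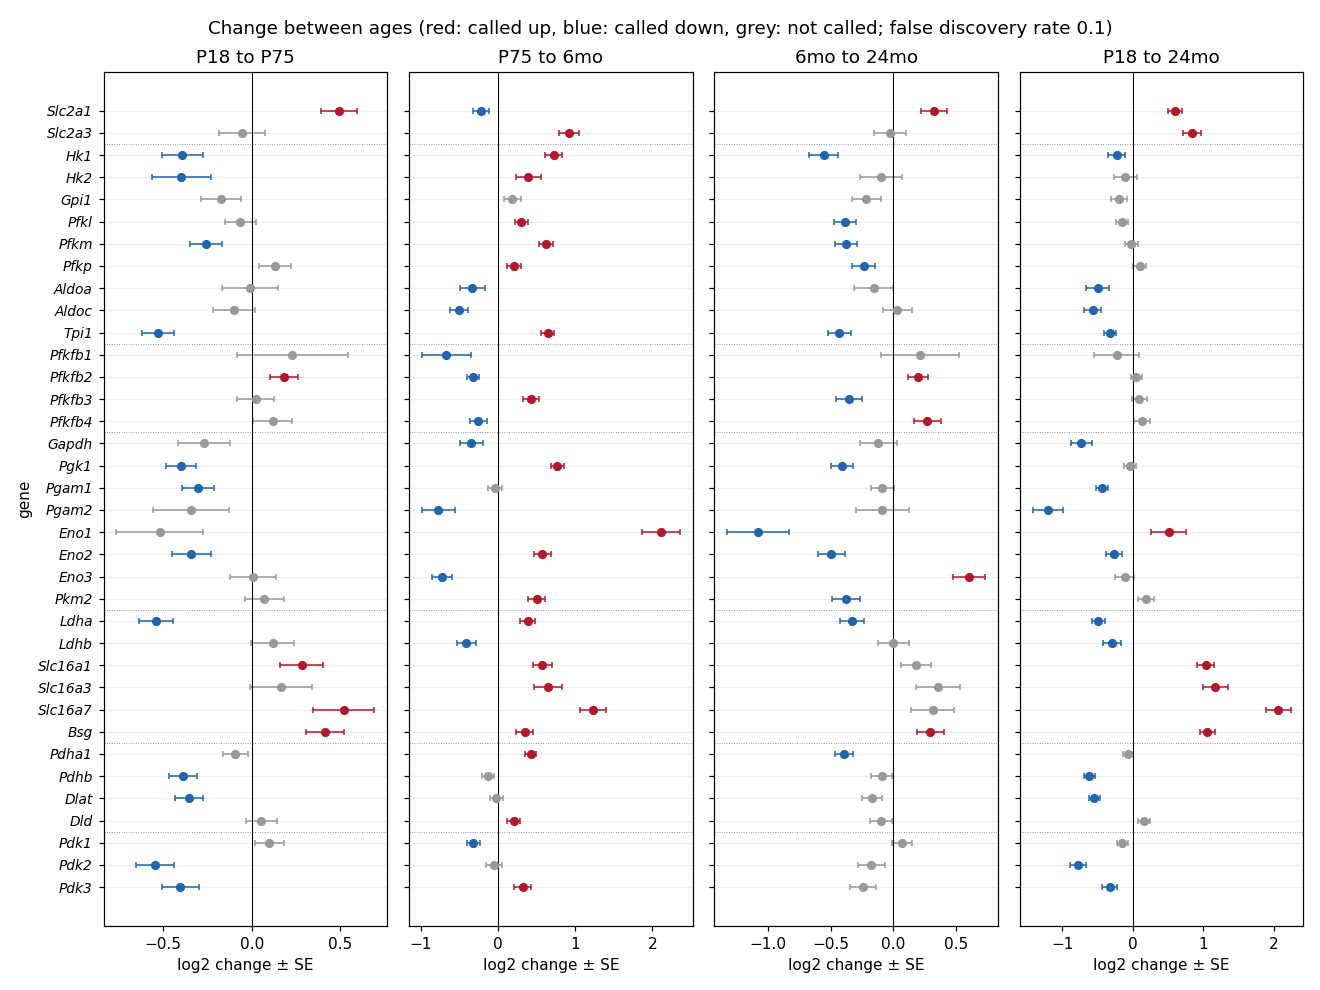
Each point is the log2 change of a gene between the ages named above the panel, on log2(normalized read count + 1), and its bar is the SE from the fit over 12 libraries. In the second panel 20 genes are red (rose) and 11 blue (fell), in the third 5 and 12, and in the fourth the points of both glucose transporters, the Slc16a genes and Bsg lie on the right of 0.

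Glucose enters through Slc2a1 (GLUT1, the transporter of the blood-brain barrier and of glia) and Slc2a3 (GLUT3, the high-affinity neuronal transporter). For Slc2a1 the normalized read counts of replicates 1, 2 and 3 were 1012, 1053 and 1081 at P18, 1233, 1509 and 1733 at P75, 1267, 1298 and 1230 at 6mo and 1511, 1566 and 1687 at 24mo. All later libraries lay above those of P18, while the spread at P75 was wide and its libraries overlapped those of 6mo and 24mo. Slc2a1 rose by 0.49 ± 0.10 (SE, adjusted p = 0.00114) from P18 to P75 and by 0.60 ± 0.10 (SE, adjusted p = 8.92e-05) from P18 to 24mo on the log2 scale. It fell by 0.22 from P75 to 6mo (adjusted p = 0.0756), a call that was lost on leaving out any of P75 replicates 2 and 3 and 6mo replicates 1, 2 and 3 and with same-total scaling (adjusted p from 0.104 to 0.369). Its rise of 0.33 from 6mo to 24mo (adjusted p = 0.0356) was lost without 24mo replicate 3 and with same-total scaling (adjusted p from 0.108 to 0.13).

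Slc2a3 took 1355, 1407 and 1903 at P18, 1519, 1605 and 1322 at P75, 3081, 2589 and 2737 at 6mo and 2379, 2769 and 3136 at 24mo. The libraries of 6mo and 24mo were all above those of P18 and P75. The rise fell within a single step, 0.92 ± 0.13 (SE, adjusted p = 2.55e-05) from P75 to 6mo, and from P18 to 24mo it was 0.84 ± 0.13 (SE, adjusted p = 3.28e-05). P18 to P75 and 6mo to 24mo gave -0.06 and -0.03 and were not called. The annotation places a further gene, Gm4482, over Slc2a3, and reads could be shared between them.

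Lactate, pyruvate and ketone bodies cross membranes through monocarboxylate transporters, and the 3 measured here rose over life. Slc16a1 (MCT1, the transporter of oligodendrocytes, astrocytes and endothelium; chromosome 3, 104442591 to 104462385, plus strand, NCBIM37) had 1029, 872 and 694 at P18, 1048, 926 and 1154 at P75, 1640, 1452 and 1552 at 6mo and 1634, 1786 and 1846 at 24mo. Every library of 6mo and 24mo exceeded every library of P18 and P75. The change was 0.57 ± 0.12 (SE, adjusted p = 0.000895) from P75 to 6mo and 1.04 ± 0.12 (SE, adjusted p = 1.6e-06) from P18 to 24mo. Its rise of 0.28 from P18 to P75 (adjusted p = 0.0735) came with overlapping libraries, and the call was lost on leaving out any of P18 replicates 2 and 3 and P75 replicates 1 and 3 and with a fit of only the 2 ages compared (adjusted p from 0.112 to 0.324).

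Slc16a7 (MCT2, the high-affinity transporter of neurons) changed most among the 36 genes over the whole span, on low counts. Its values were 34.5, 47.5 and 35.2 at P18, 59.1, 50.1 and 58.6 at P75, 162, 118 and 121 at 6mo and 144, 172 and 180 at 24mo. Between P18, P75 and 6mo the libraries of successive ages did not overlap, and those of 6mo and 24mo did. It rose by 0.52 ± 0.17 (SE, adjusted p = 0.0241), by 1.23 ± 0.17 (SE, adjusted p = 2.48e-05) and, net from P18 to 24mo, by 2.06 ± 0.17 (SE, adjusted p = 3.7e-08). From 6mo to 24mo the value was 0.32 and was not called.

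Slc16a3 (MCT4, the low-affinity lactate exporter of astrocytes and glycolytic tissue) was rare throughout, with 26.1, 31.6 and 27.1 at P18, 36.1, 29.7 and 29.9 at P75, 57.7, 47.0 and 46.7 at 6mo and 65.4, 64.9 and 63.9 at 24mo. The P75 libraries overlapped those of P18, and the 24mo libraries were all above those of 6mo. It rose by 0.65 ± 0.18 (SE, adjusted p = 0.00589) from P75 to 6mo and by 1.17 ± 0.18 (SE, adjusted p = 2.64e-05) from P18 to 24mo. Csnk1d is annotated over part of the gene.

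Bsg (basigin, the glycoprotein that escorts MCT1 and MCT4 to the membrane; chromosome 10, 79167103 to 79174724, plus strand, NCBIM37) was the most abundant transcript of this group. It had 5640, 6071 and 7310 at P18, 7799, 9139 and 8301 at P75, 10647, 10899 and 10486 at 6mo and 12358, 12571 and 14533 at 24mo. No library overlapped with those of the age before. Bsg rose in each step, by 0.41 ± 0.11 (SE, adjusted p = 0.00594), by 0.35 ± 0.11 (SE, adjusted p = 0.0128) and by 0.30 ± 0.11 (SE, adjusted p = 0.0623), and from P18 to 24mo by 1.06 ± 0.11 (SE, adjusted p = 3.52e-07). The call of the last step was lost on leaving out any of 6mo replicates 1, 2 and 3 and 24mo replicates 2 and 3 and with same-total scaling (adjusted p from 0.11 to 0.216).

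**Figure D3:**
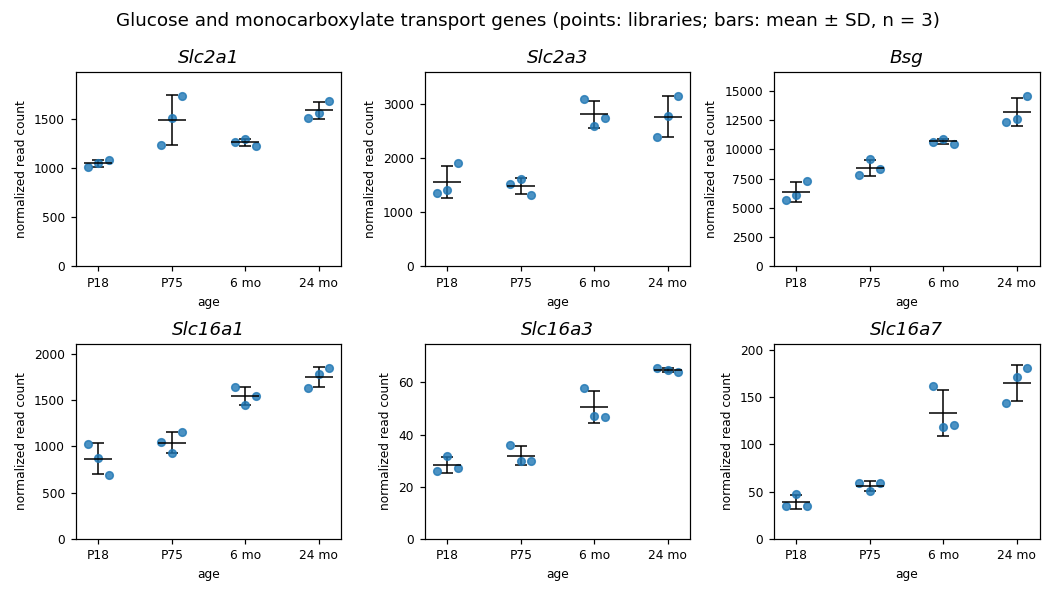
Normalized read counts (vertical axis, from 0) of 6 transport genes by age, with a point per library and bars for mean ± SD (n = 3). Bsg increases at each age, from 5640 to 7310 at P18 to 12358 to 14533 at 24mo, and Slc16a1, Slc16a7 and Slc2a3 stand higher at 6mo and 24mo than at P18 and P75.

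The further list of glycolytic enzymes and transporters, 22 of whose genes were tested, had 13 called up and 4 down from P18 to 24mo, with a median log2 change of 0.71. In that comparison 34.7% of all genes rose and 34.3% fell. The 4 genes named here had the smallest adjusted p of the list, and all of them rose. The list holds Emb (embigin, the escort of MCT2), which rose by 2.03 ± 0.10 (SE, adjusted p = 2.8e-10) from 306 ± 6.39 at P18 to 1252 ± 59.9 at 24mo (SD, n = 3). Slc2a13, a transporter of myo-inositol, rose by 1.34 ± 0.11 (SE, adjusted p = 3.6e-08), Slc2a8, an intracellular glucose transporter, by 1.43 ± 0.12 (SE, adjusted p = 4e-08), and Minpp1, a phosphatase of inositol phosphates and bisphosphoglycerate, by 1.15 ± 0.09 (SE, adjusted p = 1.13e-08).

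Markers of other cell types were also called from P18 to 24mo, where 34.7% of all genes rose and 34.3% fell. In that comparison 9 of 10 microglia markers, 7 of 10 astrocyte markers (1 fell), 5 of 5 choroid plexus markers and 4 of 8 endothelial markers (1 fell) rose. Of 12 myelin and oligodendrocyte markers 1 rose and 8 fell, with a median log2 change of -1.05. Of 11 neuron markers 4 rose and 5 fell (median -0.25), and of 6 oligodendrocyte precursor markers 3 rose and 1 fell (median 0.33). The summed microglia markers were 5403 to 6233 at P18, 7965 to 8785 at P75, 9375 to 11026 at 6mo and 14305 to 18094 at 24mo. The astrocyte sum went from 71092 to 111961 at P18 to 126666 to 136498 at 24mo, and the choroid plexus sum from 12570 to 14655 to 42550 to 47225. The endothelial sum was 679 to 780 at P18 and 728 to 778 at 24mo, and Hba-a1, Hba-a2, Hbb-b1 and Hbb-b2 were listed at 0 in every library, so that the red blood cell list rested on Alas2 alone. Alas2, which makes heme in red cell precursors, was at 362 to 472 at P18, 36.2 to 44.1 at P75, 29.2 to 57.7 at 6mo and 32.4 to 38.9 at 24mo, and it was called down from P18 to P75 and from P18 to 24mo, by -3.30 and -3.49 on the log2 scale. The part of these cell types in the changes of the transporters was not tested.

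Glycolytic and lactate genes are known targets of hypoxia-inducible factors, which bind the core of the hypoxia response element. Promoters are shown for a pair that rose to 24mo (Slc16a1, Slc16a3) and a pair that was lower at P75 and higher at 6mo (Ldha, Pgk1), a choice made with the values and the matches known. All 4 hold ACGTG, so they do not stand for the windows of the other genes. Each is the stretch of 250 bases upstream of the start of transcription, 5′ to 3′ on the strand of the gene, GRCm38.p6, with ACGTG and GCGTG or their reverse complements CACGT and CACGC in capitals. Ldha has a further window that is not shown.
Slc16a1 (chr3:104638414-104638663, plus strand): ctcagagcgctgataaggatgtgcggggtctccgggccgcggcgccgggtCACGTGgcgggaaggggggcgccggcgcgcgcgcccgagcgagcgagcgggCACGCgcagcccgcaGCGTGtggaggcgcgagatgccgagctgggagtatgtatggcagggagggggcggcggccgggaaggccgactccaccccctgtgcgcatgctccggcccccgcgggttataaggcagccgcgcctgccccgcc
Slc16a3 (chr11:120948817-120949066, plus strand): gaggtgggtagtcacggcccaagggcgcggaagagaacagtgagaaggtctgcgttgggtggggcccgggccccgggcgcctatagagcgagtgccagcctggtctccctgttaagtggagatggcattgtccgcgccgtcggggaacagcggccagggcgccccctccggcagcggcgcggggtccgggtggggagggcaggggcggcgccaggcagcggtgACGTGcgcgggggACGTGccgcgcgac
Ldha (chr7:46845554-46845803, plus strand): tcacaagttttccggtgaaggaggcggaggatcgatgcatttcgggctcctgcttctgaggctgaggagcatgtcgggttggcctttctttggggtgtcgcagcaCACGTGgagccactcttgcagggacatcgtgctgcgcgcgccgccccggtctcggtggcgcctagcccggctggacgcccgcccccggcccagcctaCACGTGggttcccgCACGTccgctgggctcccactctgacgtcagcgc
Pgk1 (chrX:106186850-106187099, plus strand): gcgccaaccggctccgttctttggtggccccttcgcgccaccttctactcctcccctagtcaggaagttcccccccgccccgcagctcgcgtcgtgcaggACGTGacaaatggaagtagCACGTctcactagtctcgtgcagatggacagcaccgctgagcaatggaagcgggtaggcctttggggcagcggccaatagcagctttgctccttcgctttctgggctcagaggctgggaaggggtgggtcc
Counting both strands, Ldha held 5 matches of ACGTG, and Pgk1 and Slc16a3 held 2 each. Slc16a1 held 2 of ACGTG and 2 of GCGTG. In CACGTG the same letters match on both strands and count for each strand. Over all 32851 such windows (27025 genes) 16.6% held ACGTG, 28.2% GCGTG and 38.6% either. Of the 52 windows of 33 of the genes described here 36.5% held ACGTG, 50.0% GCGTG and 71.2% (37 windows) either. Slc16a7, Bsg and Slc2a3 had no window in the reference used. Both words hold CG, and the windows were not matched for base composition, so an enrichment of the words was not tested. A match describes letters in the window and is not a measured binding site.

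The 12 genes listed as regulators of glycolytic genes had 3 called up and 6 down from P75 to 6mo, where 31.2% of all genes rose and 29.4% fell, with a median of -0.15 beside 0.01 for all genes. Hif1a, the oxygen-sensitive subunit, rose by 0.41 ± 0.09 (SE, adjusted p = 0.00134) and Hif3a, which can oppose it, fell by 2.35 ± 0.23 (SE, adjusted p = 1.09e-06). Epas1 (HIF2A) fell by 0.53 ± 0.09 (SE, adjusted p = 0.000138), and Ppargc1a, a coactivator of mitochondrial genes, fell by 0.41 ± 0.09 (SE, adjusted p = 0.00122).

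The upper part of glycolysis traps glucose and splits it into triose phosphates. Of its 9 genes 4 fell from P18 to P75 (22.9% of all genes fell), 6 rose and 2 fell from P75 to 6mo (31.2% of all genes rose and 29.4% fell), and 5 fell from 6mo to 24mo (12.7% of all genes). Hexokinase 1 (Hk1), the main brain enzyme for phosphorylating glucose, had 4433, 4526 and 5720 at P18, 3568, 4380 and 3245 at P75, 6408, 6173 and 5714 at 6mo and 4052, 4021 and 4367 at 24mo. The 6mo libraries lay above all of P75 and 24mo, while P18 replicate 3 reached their level. Hk1 changed by -0.39 ± 0.12 (SE, adjusted p = 0.0123), by 0.72 ± 0.12 (SE, adjusted p = 8.63e-05) and by -0.56 ± 0.12 (SE, adjusted p = 0.00514) in the consecutive steps. The first of these was lost with same-total scaling (adjusted p = 0.146). Its net fall of 0.23 from P18 to 24mo (adjusted p = 0.0932) was lost on leaving out any of P18 replicate 3, P75 replicate 1, 6mo replicates 2 and 3 and 24mo replicates 1 and 2 and with each of no filter on low values, the replicate block, same-total scaling and quantile normalization (adjusted p from 0.102 to 0.373). Hk2, the insulin-responsive hexokinase, stood at 98.6, 114 and 118 at P18, 86.2, 73.2 and 90.7 at P75, 132, 101 and 98.3 at 6mo and 82.2, 120 and 107 at 24mo. Its fall of 0.40 from P18 to P75 (adjusted p = 0.0665) and its rise of 0.39 from P75 to 6mo (adjusted p = 0.0574) were lost, the former on leaving out any of P18 replicates 2 and 3 and P75 replicate 2 and with each of no filter on low values and same-total scaling (adjusted p from 0.102 to 0.261), and the latter on leaving out any of P75 replicate 2 and 6mo replicate 1 (adjusted p from 0.191 to 0.25).

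Gpi1, which turns glucose-6-phosphate into fructose-6-phosphate, ranged from 11330 to 16307 and was not called in any comparison, with log2 changes of -0.17, 0.19 and -0.215 in the consecutive steps and -0.20 from P18 to 24mo. Among the P18 and P75 libraries, P18 replicate 3 and P75 replicate 2 were the highest of their ages for Gpi1 too.

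Phosphofructokinase catalyses the committed step, and its subunits are encoded by Pfkm (muscle), Pfkl (liver) and Pfkp (platelet). Pfkm, the most abundant of them per kilobase, had 6482, 6836 and 7435 at P18, 5956, 6131 and 5268 at P75, 9143, 9196 and 8247 at 6mo and 6853, 6694 and 6880 at 24mo. The 6mo libraries exceeded those of every other age. The changes were -0.26 ± 0.09 (SE, adjusted p = 0.0305), 0.62 ± 0.09 (SE, adjusted p = 3.64e-05) and -0.38 ± 0.09 (SE, adjusted p = 0.0101). The first of these was lost without P75 replicate 3 and with each of same-total scaling and quantile normalization (adjusted p from 0.13 to 0.4). Pfkl, from 2038 to 2878 over all libraries, rose by 0.30 ± 0.09 (SE, adjusted p = 0.00807) from P75 to 6mo and fell by 0.39 ± 0.09 (SE, adjusted p = 0.00751) from 6mo to 24mo. Pfkp had 4609, 4720 and 5347 at P18, 5409, 5578 and 5068 at P75, 6638, 6132 and 5742 at 6mo and 4891, 5214 and 5599 at 24mo. Its changes, 0.20 from P75 to 6mo (adjusted p = 0.0702) and -0.24 from 6mo to 24mo (adjusted p = 0.0762), had the same signs as those of Pfkm and were lost, the former on leaving out any of P75 replicates 1 and 3 and 6mo replicates 1 and 2 and with same-total scaling (adjusted p from 0.108 to 0.229), and the latter on leaving out any of 6mo replicates 1 and 2 and 24mo replicates 1 and 2 and with each of the replicate block and same-total scaling (adjusted p from 0.107 to 0.246). Senp1 and Pitrm1 are annotated over part of Pfkm and Pfkp.

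The bifunctional enzymes of the Pfkfb family set the level of fructose-2,6-bisphosphate, an activator of phosphofructokinase. Pfkfb3, the isoform with the highest kinase activity, ranged from 543 to 911, and rose by 0.42 ± 0.11 (SE, adjusted p = 0.00329) from P75 to 6mo and fell by 0.35 ± 0.11 (SE, adjusted p = 0.0304) from 6mo to 24mo, the latter lost on leaving out any of 6mo replicate 1 and 24mo replicate 1 (adjusted p from 0.101 to 0.132). The other members went the opposite way between P75 and 6mo. Pfkfb2 (736 to 985 over all libraries) fell by 0.33 ± 0.08 (SE, adjusted p = 0.00214), and its rises from P18 to P75 (0.18, adjusted p = 0.0711) and from 6mo to 24mo (0.20, adjusted p = 0.0815) were lost, the former on leaving out any of P18 replicates 1 and 2 and P75 replicates 1 and 3 and with each of a fit of only the 2 ages compared and same-total scaling without the 10 most abundant genes (adjusted p from 0.101 to 0.187), and the latter on leaving out any of 6mo replicates 1, 2 and 3 and 24mo replicates 1 and 2 and with each of the replicate block, same-total scaling, same-total scaling without the 10 most abundant genes and quantile normalization (adjusted p from 0.11 to 0.345). Pfkfb4 (172 to 247) fell by 0.26 from P75 to 6mo (adjusted p = 0.0582) and rose by 0.27 from 6mo to 24mo (adjusted p = 0.0898), calls that were lost, the former on leaving out any of P75 replicates 2 and 3 and 6mo replicates 1 and 3 and with same-total scaling (adjusted p from 0.105 to 0.217), and the latter on leaving out any of P18 replicate 1, P75 replicates 1 and 2, 6mo replicates 1 and 3 and 24mo replicates 1 and 2 and with each of no filter on low values, the replicate block, same-total scaling, same-total scaling without the 10 most abundant genes, quantile normalization and DESeq2 (adjusted p from 0.103 to 0.296).

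Pfkfb1, the liver isoform, was the rarest of the 36 genes, with 11.9, 12.4 and 14.1 at P18, 15.0, 14.8 and 15.5 at P75, 12.2, 7.99 and 7.78 at 6mo and 15.8, 7.57 and 10.2 at 24mo. Its fall of 0.67 from P75 to 6mo (adjusted p = 0.0829) rested on replicates 2 and 3 of 6mo, replicate 1 being near the P18 level, and was lost on leaving out any of P75 replicates 1, 2 and 3 and 6mo replicates 2 and 3 and with each of same-total scaling and DESeq2 (adjusted p from 0.109 to 0.203).

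Aldolase and triose phosphate isomerase followed different courses. Aldoa, the general aldolase, had 50938, 49414 and 66368 at P18, 51155, 66792 and 48030 at P75, 41763, 46535 and 42206 at 6mo and 38375, 38301 and 40164 at 24mo. P18 replicate 3 and P75 replicate 2 stood above the other libraries of their ages, and all 24mo libraries were below all others. It fell by 0.50 ± 0.16 (SE, adjusted p = 0.0111) from P18 to 24mo. Its fall of 0.33 from P75 to 6mo (adjusted p = 0.0856) was lost on leaving out any of P75 replicate 2, 6mo replicates 1 and 3 and 24mo replicates 1, 2 and 3 and with each of no filter on low values, a fit of only the 2 ages compared, the replicate block and same-total scaling (adjusted p from 0.104 to 0.355). Aldoc, the aldolase of brain, had 43079, 45149 and 44028 at P18, 38968, 44188 and 40338 at P75, 27771, 32010 and 27465 at 6mo and 30521, 28974 and 29567 at 24mo. Here P18 and P75 stood above 6mo and 24mo with no overlap. It fell by 0.50 ± 0.12 (SE, adjusted p = 0.00209) from P75 to 6mo and by 0.57 ± 0.12 (SE, adjusted p = 0.000529) from P18 to 24mo.

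Tpi1, which interconverts the triose phosphates, had 11798, 12644 and 11010 at P18, 8279, 8318 and 7895 at P75, 12618, 13299 and 12286 at 6mo and 9031, 9334 and 9983 at 24mo. The P75 libraries were the lowest of all 12 and lay within 7895 to 8318. Tpi1 fell by 0.53 ± 0.09 (SE, adjusted p = 0.000225) from P18 to P75, rose by 0.64 ± 0.09 (SE, adjusted p = 2.4e-05) to 6mo, and fell by 0.43 ± 0.09 (SE, adjusted p = 0.00515) to 24mo. From P18 to 24mo it fell by 0.32 ± 0.09 (SE, adjusted p = 0.00511). Spsb2 is annotated over part of the gene.

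The lower part of glycolysis yields ATP and pyruvate. Of its 8 genes 3 fell from P18 to P75 (22.9% of all genes), 4 rose and 3 fell from P75 to 6mo (31.2% and 29.4% of all genes), and 1 rose and 4 fell from 6mo to 24mo (16.6% and 12.7% of all genes). Gapdh, often used as a reference gene, had 32721, 33055 and 45850 at P18, 28632, 36444 and 27210 at P75, 23287, 25871 and 22998 at 6mo and 21957, 21996 and 22413 at 24mo. P18 replicate 3 and P75 replicate 2 were again the highest of their ages. Gapdh fell by 0.73 ± 0.15 (SE, adjusted p = 0.000384) from P18 to 24mo. Its fall of 0.34 from P75 to 6mo (adjusted p = 0.0581) was lost on leaving out any of P75 replicate 2 and 6mo replicates 1 and 3 and with quantile normalization (adjusted p from 0.128 to 0.289). P18 replicate 3 and P75 replicate 2 also had the highest neuron marker sums of their ages. These were 220679 in P18 replicate 3 (180284 and 192450 in the others) and 235674 in P75 replicate 2 (206272 and 215276). Their astrocyte sums, 71092 and 99683, were the lowest of their ages. So were their myelin marker sums, 357954 (562822 and 639896 in the others) and 201139 (263302 and 224214). The part of these differences in the values was not tested.

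Pgk1, the first ATP-forming enzyme, had 10935, 11679 and 11139 at P18, 8751, 8448 and 8357 at P75, 14901, 14713 and 13946 at 6mo and 10400, 10969 and 11396 at 24mo. The 6mo libraries were the highest and the P75 libraries the lowest, with no overlap to any other age. Pgk1 fell by 0.40 ± 0.09 (SE, adjusted p = 0.00151), rose by 0.77 ± 0.09 (SE, adjusted p = 3.18e-06) and fell by 0.41 ± 0.09 (SE, adjusted p = 0.00532). Pgam1, the main phosphoglycerate mutase, fell by 0.30 ± 0.09 (SE, adjusted p = 0.0132) from P18 to P75 and stayed between 12120 and 13820 afterwards. From P18 to 24mo it fell by 0.44 ± 0.09 (SE, adjusted p = 0.00052), and the call from P18 to P75 was lost with same-total scaling (adjusted p = 0.246). Pgam2, the muscle form, had 184, 168 and 324 at P18, 139, 223 and 158 at P75, 85.3, 107 and 107 at 6mo and 95.1, 91.9 and 92.6 at 24mo. It fell by 0.77 ± 0.21 (SE, adjusted p = 0.00617) from P75 to 6mo and by 1.20 ± 0.21 (SE, adjusted p = 0.000127) from P18 to 24mo, the largest fall of the 36 genes in that comparison.

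Enolase makes phosphoenolpyruvate. Eno2, the neuron-specific enolase, had 13549, 14073 and 15109 at P18, 11064, 13065 and 9786 at P75, 17444, 17182 and 15598 at 6mo and 11239, 11757 and 12627 at 24mo. The 6mo libraries were above all others. Eno2 fell by 0.34 ± 0.11 (SE, adjusted p = 0.0217), rose by 0.57 ± 0.11 (SE, adjusted p = 0.000441) and fell by 0.50 ± 0.11 (SE, adjusted p = 0.00772) in the consecutive steps, the first call being lost without P75 replicate 3 and with same-total scaling (adjusted p from 0.113 to 0.217). From P18 to 24mo it fell by 0.26 (adjusted p = 0.0498), a call lost on leaving out any of P18 replicate 3 and 24mo replicates 1 and 2 and with same-total scaling (adjusted p from 0.109 to 0.246). Eno3, the muscle enolase, went the other way, with 171, 151 and 175 at P18, 151, 169 and 179 at P75, 86.9, 114 and 101 at 6mo and 165, 146 and 147 at 24mo. Its 6mo libraries were the lowest. Eno3 fell by 0.73 ± 0.13 (SE, adjusted p = 0.000232) and rose by 0.60 ± 0.13 (SE, adjusted p = 0.0062).

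Eno1, the general enolase, was listed at only 74.9, 91.5 and 66.3 at P18, 78.2, 60.3 and 32.1 at P75, 276, 223 and 206 at 6mo and 96.1, 130 and 106 at 24mo. The 6mo libraries stood above all others. It rose by 2.11 ± 0.25 (SE, adjusted p = 4.47e-06) from P75 to 6mo and fell by 1.08 ± 0.25 (SE, adjusted p = 0.00808) from 6mo to 24mo. Its net rise of 0.51 from P18 to 24mo (adjusted p = 0.0829) was lost on leaving out any of P18 replicates 1 and 3 and 24mo replicates 2 and 3 and with each of no filter on low values and quantile normalization (adjusted p from 0.117 to 0.373). Of the 31-base words in its exons 51.7% occur elsewhere in the genome, and the treatment of reads with several matches is not given in the sources used here, so its level and changes are uncertain.

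Pkm2 (pyruvate kinase, muscle gene) makes pyruvate. Its counts ran from 21498 to 26306 outside 6mo and from 30479 to 34317 at 6mo. It rose by 0.50 ± 0.11 (SE, adjusted p = 0.00138) and fell by 0.38 ± 0.11 (SE, adjusted p = 0.0265). The shares of shared 31-base words were 93.7% for Pgam1, 92.8% for Pgk1, 81.2% for Gapdh, 63.7% for Pkm2, 47.8% for Gpi1, 36.8% for Tpi1 and 31.1% for Aldoa, while Aldoc, Pfkm, Pgam2, Eno3 and all 3 Slc16a genes had none, so the values of the former may hold or lack reads of near-identical copies. Other genes are annotated over part of Hk1 (2210417K05Rik), Hk2 (Gm17034), Gpi1 (Gm17327), Pfkfb1 (Apex2), Pfkfb2 (Yod1), Slc2a1 (Mir1957, Gm12867 and Gm12868) and Pdk2 (Gm11513), and whether reads were counted by strand is not given in the sources used here, so reads may be shared there too.

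**Figure D4:**
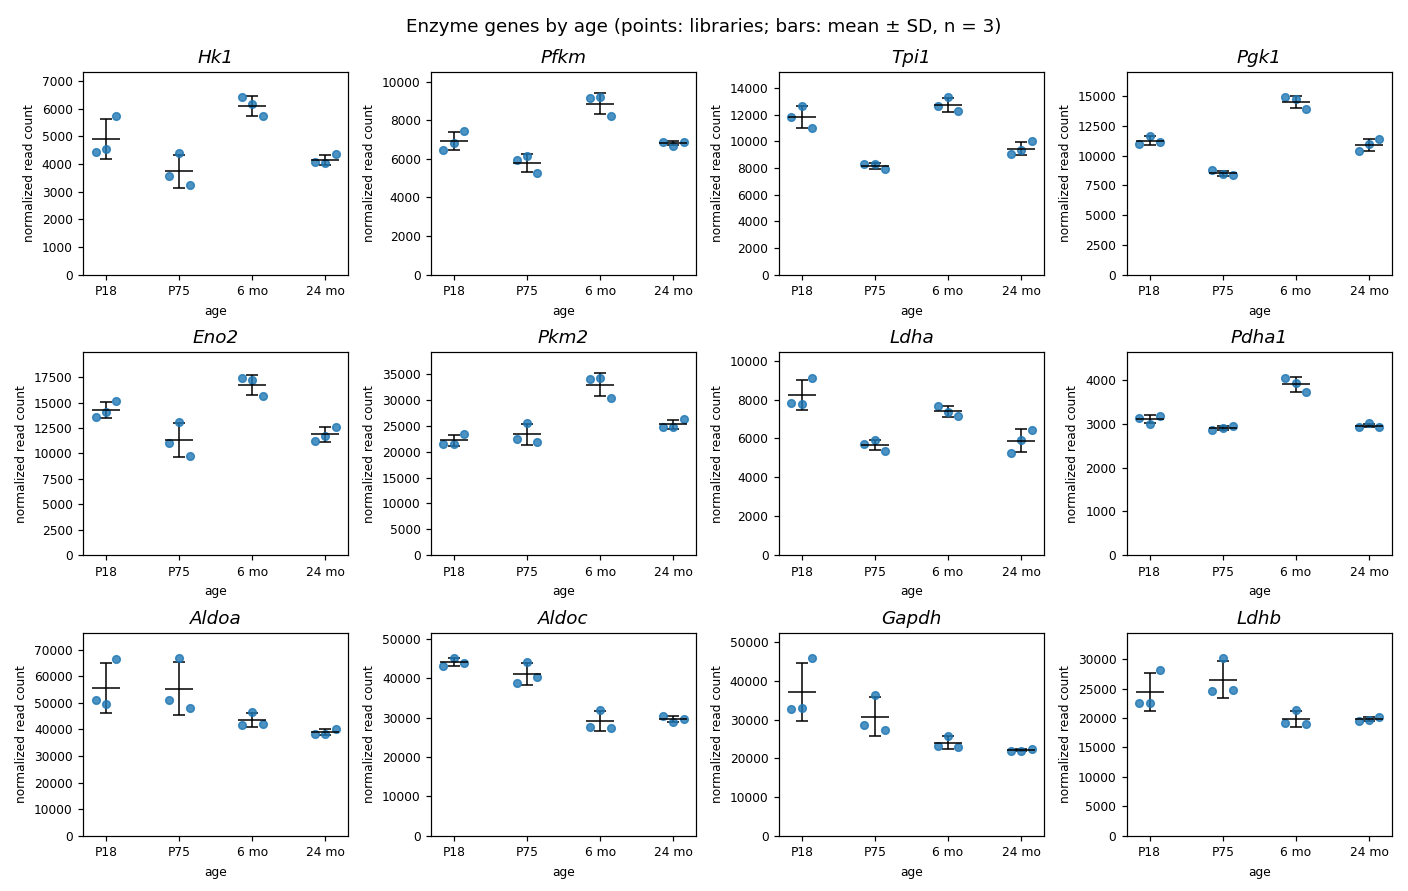
Normalized read counts (vertical axes, from 0) of 12 enzyme genes by age, with a point per library and bars for mean ± SD (n = 3). Hk1, Pfkm, Tpi1, Pgk1, Eno2, Pkm2 and Pdha1 have their highest mean at 6mo, Ldha is highest at P18 and 6mo, and Aldoa, Aldoc, Gapdh and Ldhb are lower at 6mo and 24mo than at P18 and P75.

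Ldha, the subunit often linked to lactate formation, had 7837, 7775 and 9121 at P18, 5693, 5903 and 5379 at P75, 7677, 7355 and 7129 at 6mo and 5264, 5905 and 6459 at 24mo. Libraries of P75 and P18 did not overlap, nor did those of P75 and 6mo or 6mo and 24mo. It fell by 0.54 ± 0.10 (SE, adjusted p = 0.000349), rose by 0.38 ± 0.10 (SE, adjusted p = 0.00314) and fell by 0.33 ± 0.10 (SE, adjusted p = 0.0247), and from P18 to 24mo it fell by 0.49 ± 0.10 (SE, adjusted p = 0.000321). The call from 6mo to 24mo was lost without 24mo replicate 1 (adjusted p = 0.116). Ldhb, the subunit often linked to pyruvate formation, had 22599, 22549 and 28205 at P18, 24614, 30157 and 24773 at P75, 19161, 21312 and 19014 at 6mo and 19537, 19640 and 20236 at 24mo. It was lower at 6mo than in every library of P75. It fell by 0.41 ± 0.12 (SE, adjusted p = 0.00939) from P75 to 6mo and by 0.30 from P18 to 24mo (adjusted p = 0.0448), the former lost with quantile normalization (adjusted p = 0.152), and the latter on leaving out any of P18 replicate 3 and 24mo replicate 2 and with same-total scaling (adjusted p from 0.105 to 0.206). Shared 31-base words made up 41.9% of Ldha and 40.5% of Ldhb.

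Pyruvate dehydrogenase is built of the E1 subunits Pdha1 and Pdhb, the E2 subunit Dlat and the E3 subunit Dld. The subunits did not change together. Pdha1, the alpha subunit, which holds the phosphorylation sites, stayed between 2870 and 3185 outside 6mo and reached 3723 to 4053 there. It rose by 0.42 ± 0.07 (SE, adjusted p = 0.000146) and fell by 0.40 ± 0.07 (SE, adjusted p = 0.00238). Pdhb had 4990, 5086 and 5496 at P18, 3696, 3970 and 4235 at P75, 3559, 3550 and 3737 at 6mo and 3295, 3290 and 3582 at 24mo. All P18 libraries were above those of every later age. Pdhb fell by 0.39 ± 0.08 (SE, adjusted p = 0.00123) from P18 to P75 and by 0.61 ± 0.08 (SE, adjusted p = 6.15e-06) from P18 to 24mo. Dlat (2211 to 3473 over all libraries) fell by 0.36 ± 0.08 (SE, adjusted p = 0.00177) and by 0.55 ± 0.08 (SE, adjusted p = 1.38e-05) in the same comparisons. Dld ranged from 2498 to 3367, and its rise of 0.20 from P75 to 6mo (adjusted p = 0.0603) was lost on leaving out any of P75 replicates 1 and 2 and 6mo replicates 1 and 3 and with each of same-total scaling and quantile normalization (adjusted p from 0.121 to 0.171). Shared 31-base words made up 52.4% of Pdhb and none of Dlat and Dld, and Map3k15 is annotated over part of Pdha1.

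Of the kinases that switch pyruvate dehydrogenase off, Pdk2 and Pdk3 were lower at 24mo than at P18. Pdk2, the widely expressed kinase, had 2419, 2656 and 2663 at P18, 1768, 2110 and 1471 at P75, 1668, 1852 and 1588 at 6mo and 1555, 1483 and 1472 at 24mo. Every later library was below those of P18. It fell by 0.55 ± 0.11 (SE, adjusted p = 0.000839) from P18 to P75 and by 0.78 ± 0.11 (SE, adjusted p = 1.1e-05) from P18 to 24mo. Pdk3 (467 to 740 over all libraries) fell by 0.40 ± 0.11 (SE, adjusted p = 0.00597) from P18 to P75, rose by 0.32 ± 0.11 (SE, adjusted p = 0.0185) from P75 to 6mo, and fell by 0.33 ± 0.11 (SE, adjusted p = 0.012) from P18 to 24mo. Pdk1 (638 to 913) fell by 0.32 ± 0.08 (SE, adjusted p = 0.00354) from P75 to 6mo. Pdk4, the fourth kinase, is no member and is named here after its values were seen. It rose by 0.31 ± 0.12 (SE, adjusted p = 0.0329) from P18 to 24mo, opposite to Pdk2 and Pdk3, and was not called in any single step.

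The mitochondrial pyruvate carrier, which is no member, is listed under the older symbols Brp44l (Mpc1) and Brp44 (Mpc2), within a further list of 11 tested genes of pyruvate entry, of which 3 rose and 4 fell from P75 to 6mo (31.2% and 29.4% of all genes). Brp44l fell by 0.98 ± 0.13 (SE, adjusted p = 1.42e-05) and Brp44 by 0.95 ± 0.11 (SE, adjusted p = 6.45e-06) in that step. Lipt2 and Lias, which make and attach the lipoyl group that Dlat needs, fell by 0.83 ± 0.13 (SE, adjusted p = 8.26e-05) and by 0.35 ± 0.10 (SE, adjusted p = 0.00929). Of the 17 genes of the tricarboxylic acid cycle, 12 fell from P18 to 24mo, where 34.3% of all genes fell, 5 were not called, and the median was -0.34 (-0.01 for all genes). Sdhc, Sdhb and Sdhd of succinate dehydrogenase fell by 0.72 ± 0.08 (SE, adjusted p = 4.95e-07), by 0.67 ± 0.11 (SE, adjusted p = 6.14e-05) and by 0.51 ± 0.09 (SE, adjusted p = 0.000105), and Ogdh of oxoglutarate dehydrogenase by 0.62 ± 0.08 (SE, adjusted p = 4.29e-06).

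Glucose-6-phosphate also feeds the pentose phosphate pathway and glycogen. Of the 8 pentose phosphate genes 6 fell and 1 rose from P18 to 24mo (34.3% and 34.7% of all genes), with a median of -0.32. Taldo1 (transaldolase) fell by 1.08 ± 0.09 (SE, adjusted p = 2.99e-08), Pgls (phosphogluconolactonase) by 1.13 ± 0.12 (SE, adjusted p = 6.94e-07) and Pgd (phosphogluconate dehydrogenase) by 0.35 ± 0.08 (SE, adjusted p = 0.00163), whereas H6pd, the enzyme of the endoplasmic reticulum, rose by 0.94 ± 0.19 (SE, adjusted p = 0.000339). Of the 11 glycogen genes 3 rose and 1 fell from P75 to 6mo, with a median of 0.07, which was no larger a share than the 31.2% and 29.4% of all genes. From 6mo to 24mo 2 fell and none rose (12.7% and 16.6% of all genes), with a median of -0.22. From P18 to 24mo 3 rose and 4 fell (34.7% and 34.3% of all genes), with a median of -0.09. Among those that rose from P75 to 6mo were Pygb (brain glycogen phosphorylase), by 0.61 ± 0.12 (SE, adjusted p = 0.000578), and Gys1 (glycogen synthase), by 0.54 ± 0.12 (SE, adjusted p = 0.00128), and Phka1 (a regulatory subunit of phosphorylase kinase) fell by 0.37 ± 0.10 (SE, adjusted p = 0.00455) in that step.

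Markers of several cell types were also called in the steps in which many enzymes rose to 6mo and fell to 24mo. From P75 to 6mo, where 31.2% of all genes rose and 29.4% fell, 7 of 11 neuron markers rose and 3 fell. Their sum went from 206272 to 235674 at P75 to 191020 to 196501 at 6mo. Of 6 oligodendrocyte precursor markers 5 rose, from a sum of 4047 to 4916 to one of 6575 to 7743. Of the myelin and oligodendrocyte markers 3 of 12 rose, no larger a share than that of all genes. In the same step 6 of 10 microglia markers rose and 1 fell, and 2 of 8 endothelial markers rose and 1 fell. Of the choroid plexus markers 4 of 5 rose and of the astrocyte markers 3 of 10, and none of either list fell. From 6mo to 24mo 12 of the 36 genes fell, and of all genes 16.6% rose and 12.7% fell. In that step no neuron, precursor or myelin marker rose. Of the other lists 5 of 10 microglia, 2 of 10 astrocyte, 1 of 5 choroid plexus and 1 of 8 endothelial markers rose, and none fell. There 3 of 11 neuron markers (median of the list -0.21), 1 of 6 precursor markers (-0.18) and 2 of 12 myelin markers (-0.23) fell. From P18 to P75 8 of 12 myelin markers fell, and 5 of 11 neuron markers fell while 2 rose (25.9% of all genes rose and 22.9% fell). The part of these cell types in the changes of the enzymes was not tested.

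Paralogs were also compared as ratios within a library, formed from normalized read counts with 1 added to each and not corrected for length. The added 1 pulls ratios with a low gene, such as Slc16a1/Slc16a7 and Eno1/Eno2, slightly towards 1. Without it a ratio does not depend on the scaling of the library, and the permutation tests of the 7 ratios then gave the same calls. Of 7 ratios compared over the 4 ages by an exact permutation test of the F statistic (369600 assignments of the 12 libraries, smallest possible p 6.5e-05), 5 passed at an adjusted p under 0.1. Ldha/Ldhb had the smallest p. It was 0.338 at P18, 0.214 at P75, 0.373 at 6mo and 0.296 at 24mo (means of 3 libraries on the log2 scale: -1.56 ± 0.06 at P18, -2.22 ± 0.12 at P75, -1.42 ± 0.11 at 6mo and -1.76 ± 0.12 at 24mo; exact permutation p = 0.00013, adjusted p = 0.00091). Libraries of successive ages did not overlap.

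For Slc2a1/Slc2a3 the mean log2 ratio was -0.55 ± 0.23 at P18, 0.00 ± 0.35 at P75, -1.14 ± 0.14 at 6mo and -0.79 ± 0.12 at 24mo (exact permutation p = 0.000325, adjusted p = 0.00114). Pfkm/Pfkp stood lower at P75 than at the other ages, at 0.50 ± 0.03 at P18, 0.11 ± 0.05 at P75, 0.52 ± 0.06 at 6mo and 0.38 ± 0.10 at 24mo (exact permutation p = 0.00201, adjusted p = 0.00291). Slc16a1/Slc16a7 was higher at P18 and P75 than at 6mo and 24mo, at 4.43 ± 0.37 at P18, 4.20 ± 0.08 at P75, 3.54 ± 0.18 at 6mo and 3.40 ± 0.08 at 24mo (exact permutation p = 0.00201, adjusted p = 0.00291). Eno1/Eno2 was -7.51 ± 0.28 at P18, -7.69 ± 0.54 at P75, -6.16 ± 0.16 at 6mo and -6.75 ± 0.22 at 24mo (exact permutation p = 0.00208, adjusted p = 0.00291), with the limit on Eno1 given above.

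The ratios Hk1/Hk2 and Aldoa/Aldoc were not found to differ over the ages. Hk1/Hk2 was 5.46 ± 0.15 at P18, 5.46 ± 0.38 at P75, 5.79 ± 0.17 at 6mo and 5.33 ± 0.28 at 24mo (exact permutation p = 0.261, adjusted p = 0.285) and Aldoa/Aldoc was 0.32 ± 0.24 at P18, 0.41 ± 0.17 at P75, 0.58 ± 0.04 at 6mo and 0.39 ± 0.06 at 24mo (exact permutation p = 0.285, adjusted p = 0.285). Without P18 replicate 3 the unadjusted permutation p of Aldoa/Aldoc was 0.0321. With 3 libraries against 3 a permutation test of a single step cannot go below a p of 0.1, so single steps of the ratios were not tested.

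**Figure D5:**
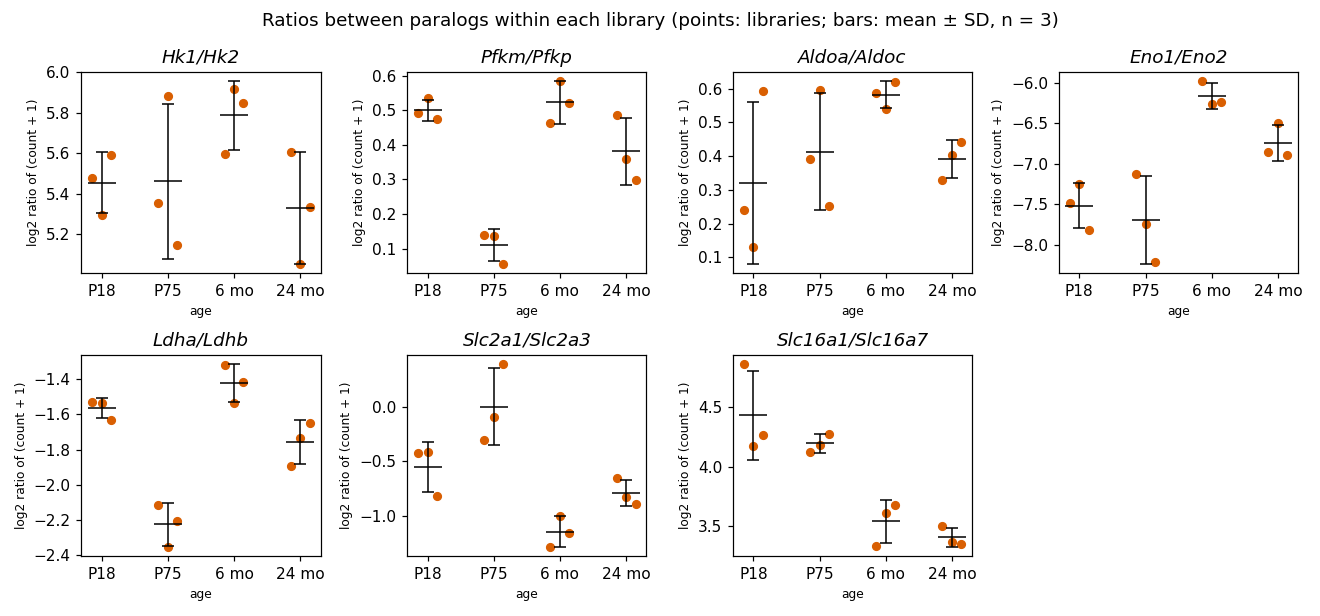
Log2 ratio of the normalized read counts, each with 1 added, of 7 pairs of paralogs by age, with a point per library and bars for mean ± SD (n = 3). The vertical axes do not start at 0. Ldha/Ldhb and Pfkm/Pfkp are lowest at P75, Slc2a1/Slc2a3 is highest there, and Slc16a1/Slc16a7 is lower at 6mo and 24mo than at P18 and P75.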

How the data were processed

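Per the labels and the study's methods, the authors aligned reads with TopHat2 to mm9 (NCBIM37), took gene counts with HTSeq 0.5.4p1, and scaled each library by its DESeq size factor. The signal deposited for a gene is therefore a scaled count, with 100% of values whole within 0.0075 of a read. The handling of reads with several matches is not given in the sources used here.

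Tests were run with limma 3.58.1, edgeR 4.0.16 and DESeq2 1.42.0 under R 4.3.3. Tables and figures were made with pandas 2.3.3, numpy 2.4.6 and matplotlib 3.10.9 (Python 3.11.15). The deposited values were compared by limma (trend) on log2(value + 1) for genes whose mean reached 10, in a fit over all 12 libraries with age alone, so changes of low genes are understated. P-values were adjusted by Benjamini-Hochberg over 14634 genes and called under 0.1. Libraries of the same age differed by more than the sampling noise of their reads. Exon lengths and 31-base words were taken from the NCBIM37 reference and its GENCODE vM1 annotation, and promoters from RefSeq.

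Members, lists and tests were chosen with earlier results of these data known. Every member is accounted for. Values in every library are given for members called with a fold over 1.5 in a comparison and for members of the 7 ratios, and genes outside are named only from the lists, up to 4 each by adjusted p. The labels number the replicates, but same-numbered libraries of different ages come from different mice. Deviations of same-numbered libraries from their age means correlated by 0.101 to 0.187 between P75 and 6mo, in every pair over 0.1, and by -0.213 to 0.0286 in the other comparisons. Other settings tried were pseudocounts of 0.5 and 10, dropping the filter or raising it to a mean of 100, other scalings, fitting the compared ages alone, blocking on the replicate number, count models (edgeR, DESeq2) on recovered reads, a threshold of 0.05, and leaving out each library.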

Additional observations from a re-analysis of the deposited data

How the results depend on the processing

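Over 86 called values of the 36 genes and their alternatives, 1910 of 2058 kept direction and call, 148 kept direction and lost the call, and none changed direction. Called under every alternative in which they were tested were 10 of 17 genes (P18 to P75), 22 of 31 (P75 to 6mo), 10 of 17 (6mo to 24mo) and 17 of 21 (P18 to 24mo), and in the same order 1, 3, 0 and 2 of the called genes were not tested with a mean over 100. The median log2 change of the members moved with same-total scaling to 0.046 (P18 to P75, where its sign turned) and -0.057 (P18 to 24mo), while the median of all genes moved to 0.14 and 0.07. Quantile normalization gave -0.14 (P18 to P75), -0.16 (6mo to 24mo) and -0.19 (P18 to 24mo, with all genes at -0.12), and a mean over 100 gave 0.20 (P75 to 6mo) and -0.16 (6mo to 24mo). The cause was not tested.

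Leaving out each library in turn gave 13 to 19 called members with medians of -0.15 to -0.068 (P18 to P75), 24 to 31 with 0.23 to 0.29 (P75 to 6mo), 12 to 19 with -0.16 to -0.11 (6mo to 24mo) and 17 to 22 with -0.15 to -0.088 (P18 to 24mo). The exact permutation p of Aldoa/Aldoc ranged from 0.0321 to 0.473 and that of Hk1/Hk2 from 0.0676 to 0.521, and the largest p of the other 5 ratios was 0.00818. With the replicate number as a block, 18, 30, 14 and 20 members were called in the same order of comparisons, against 17, 31, 17 and 21, and for P75 to 6mo, where the numbers correlated, it ended only the call of Aldoa. For the counts of members in these fits, the shares of all genes called were not computed.

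Groups of 3 libraries and low counts limit what can be called. The SE of a log2 change was 0.31 for Pfkfb1, 0.25 for Eno1 and 0.18 for Slc16a3, so that changes of 0.21 for Pfkfb1 and 0.36 for Slc16a3 from 6mo to 24mo were not called.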
